A study of Homo sapiens with 10 samples.

Results

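The genes described are LAMA3 and LAMB3, which encode the alpha and beta chains of the epithelial laminin bound by the hemidesmosome, COL17A1, and the matrix genes FN1, TNC, THBS1, FBN1 and LOXL2. They were chosen by name, with earlier results of these data known. Shares of called genes set beside those of all genes are therefore descriptions and not tests of this choice. Matching to the deposited counts by Ensembl gene ID gave 8 genes of the 57736 in the table. All 8 passed the filter on low counts and were tested among 17978 genes.

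RNA was sequenced from 3 lung cancer cell lines, each with its own p53 missense mutation: NCI-H2087 has V157F, NCI-H441 has R158L, and R158P is found in NCI-H2110. Cells of each line had received siRNA directed at p53 or control siRNA, so every library comes from transfected mutant cells and none from cells with normal p53. Each arm was sequenced in n = 2 libraries for the first 2 lines and in a single library, numbered replicate 2, for NCI-H2110. Sample titles call the treated arm a knockout, but the protocol names an siRNA. Each mutation is carried by 1 line, so mutation and line cannot be told apart. Nothing in the labels tells if replicates came from separate cultures, so p-values measure the spread between these libraries alone, which may be technical.

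The laminin that contains the LAMA3 and LAMB3 chains is the main laminin of the basement membrane under stratified and many glandular epithelia. Cells hold on to it through integrin alpha 6 beta 4 in the hemidesmosome, a junction that also contains the transmembrane collagen XVII, encoded by COL17A1, and the linker protein plectin. FN1 encodes fibronectin, a fibril-forming adhesive glycoprotein. TNC and THBS1 encode tenascin C and thrombospondin 1, matricellular proteins that modulate adhesion, and thrombospondin 1 can also activate latent TGF-beta. FBN1 encodes fibrillin 1, the main component of microfibrils, and LOXL2 encodes a lysyl oxidase family enzyme that crosslinks collagen.

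Promoter sequences are shown for 6 of these genes because they are the stretches that carry, or lack, the letters recognised by well-known regulators of matrix genes. RefSeq promoter windows on GRCh38.p14 matched 7 of the 8 genes by symbol, with 3 start sites for LAMB3. Each line gives the 150 bases before the start site, 5′ to 3′ on the strand of the gene, with motif matches in capitals. The LAMA3 window is chr18:23872870-23873019 on the plus strand, the LAMB3 window (the third start site listed) is chr1:209651375-209651524 on the minus strand, and the COL17A1 window is chr10:104085881-104086030 on the minus strand. The TNC window is chr9:115118158-115118307 on the minus strand, the THBS1 window is chr15:39580929-39581078 on the plus strand, and the FBN1 window is chr15:48644971-48645120 on the minus strand.
LAMA3: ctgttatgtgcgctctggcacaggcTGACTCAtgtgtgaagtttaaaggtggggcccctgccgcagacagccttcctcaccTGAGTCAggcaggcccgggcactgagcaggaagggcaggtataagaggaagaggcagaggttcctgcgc
LAMB3: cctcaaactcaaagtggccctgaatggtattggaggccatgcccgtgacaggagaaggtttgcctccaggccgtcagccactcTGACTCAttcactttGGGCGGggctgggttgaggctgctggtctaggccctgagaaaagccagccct
COL17A1: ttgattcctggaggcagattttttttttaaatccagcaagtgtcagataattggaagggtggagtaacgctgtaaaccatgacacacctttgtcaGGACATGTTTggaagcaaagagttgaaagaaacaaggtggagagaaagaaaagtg
TNC: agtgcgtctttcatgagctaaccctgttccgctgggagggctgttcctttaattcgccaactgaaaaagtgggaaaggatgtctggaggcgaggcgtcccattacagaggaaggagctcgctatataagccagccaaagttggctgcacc
THBS1: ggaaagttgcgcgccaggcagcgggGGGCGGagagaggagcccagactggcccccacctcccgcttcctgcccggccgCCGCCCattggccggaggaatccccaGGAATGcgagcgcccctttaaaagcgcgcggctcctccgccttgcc
FBN1: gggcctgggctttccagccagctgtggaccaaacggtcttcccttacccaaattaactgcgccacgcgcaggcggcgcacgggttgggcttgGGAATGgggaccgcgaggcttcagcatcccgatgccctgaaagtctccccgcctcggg

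Motifs were searched on both strands of the 250 bases before each start site. The AP-1 letters TGANTCA occurred in LAMA3, with matches that begin 125 and 69 bases before the start. In LAMB3 they occurred 67 bases before the third start site listed, the one printed. The windows of the other LAMB3 start sites had 0 matches to these letters. Of 35116 promoter windows of the same length, 6.57% hold these letters. The TEAD letters GGAATG occurred 46 bases before the THBS1 start and 58 bases before the FBN1 start, and 11.9% of all windows hold them. A p53 half-site match began 55 bases before the COL17A1 start, and 5.57% of windows hold 1. The TATA letters TATAAA were found only in COL17A1 among these windows, 206 bases before the start and outside the printed stretch, against 10.7% of windows. The GC box letters GGGCGG, present in 42.6% of windows, occurred 6 times in FN1, 4 times in THBS1 and once each in LAMA3, TNC and each of the 3 LAMB3 windows, partly outside the printed stretch. GC box matches in FN1 overlap each other. The windows of LAMB3 start sites 1 and 2 overlap, and their GC box match is the same site. These matches describe letters and say nothing about binding in these cells.

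Library totals ran from 18336672 to 25810934 counts. The epithelial markers EPCAM and KRT8 had at least 2836 and 4422 counts in every library. The surfactant gene SFTPC, which marks alveolar type 2 cells, had 0 to 11 counts, and NAPSA, another marker of those cells, had only 10 and 8 counts in NCI-H2110. Of 8 fibroblast markers PDGFRA was at 0 in all libraries, DCN and THY1 were at 0 or 1 count, COL1A1 had 264 to 1125 counts, and LUM had 675 to 939 counts in NCI-H441 against at most 11 in the other lines. Summed fibroblast markers were 14.2 to 17.0 CPM (counts scaled to a common library size, with TMM factors) in NCI-H2087 controls and 12.4 to 16.4 CPM after p53 siRNA. In bulk RNA, fewer cells of a kind and less RNA per cell cannot be told apart.

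The order of the genes by level was not the same in the 3 lines. Per kilobase of exons, the scale on which genes can be set side by side, FN1 had the highest group mean in the controls of NCI-H2087 and NCI-H441. In NCI-H2087 controls FN1 stood at 70.7 ± 2.76 CPM per kb (SD, n = 2) and THBS1 at 47.5 ± 5.34. TNC (7.59 ± 0.83), FBN1 (3.47 ± 0.50) and LAMA3 (1.98 ± 0.02) followed, and the mean ± SD ranges of these 5 did not overlap. LOXL2 (1.44 ± 0.33) and LAMB3 (1.25 ± 0.12 CPM per kb) were within each other's spread, and COL17A1 was lowest at 0.039 ± 0.017. In NCI-H441 controls the order began with FN1 (47.8 ± 1.61 CPM per kb), LAMB3 (41.4 ± 26.6) and THBS1 (36.8 ± 1.92), of which LAMB3 overlapped both neighbours. In control replicate 2 of that line LAMB3, at 60.3 CPM per kb, was above FN1, at 46.7. This order depended on the length used: per length of the longest transcript LAMB3 was below FN1 in that library. LAMA3 (10.9 ± 4.99) and TNC (8.23 ± 1.91) overlapped too, and LOXL2 stood at 1.5 ± 0.22, with FBN1 (0.040 ± 0.012) and COL17A1 (0.030 ± 0.009 CPM per kb) lowest and within each other's spread. In the single NCI-H2110 control library LAMB3 and LAMA3 led, at 13.8 and 12.8 CPM per kb, and THBS1 was lowest at 0.241. The order of LAMB3 and LAMA3 there turned with the length used: per length of the longest transcript LAMB3 was at 0.852 times LAMA3.

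**Figure D1:**
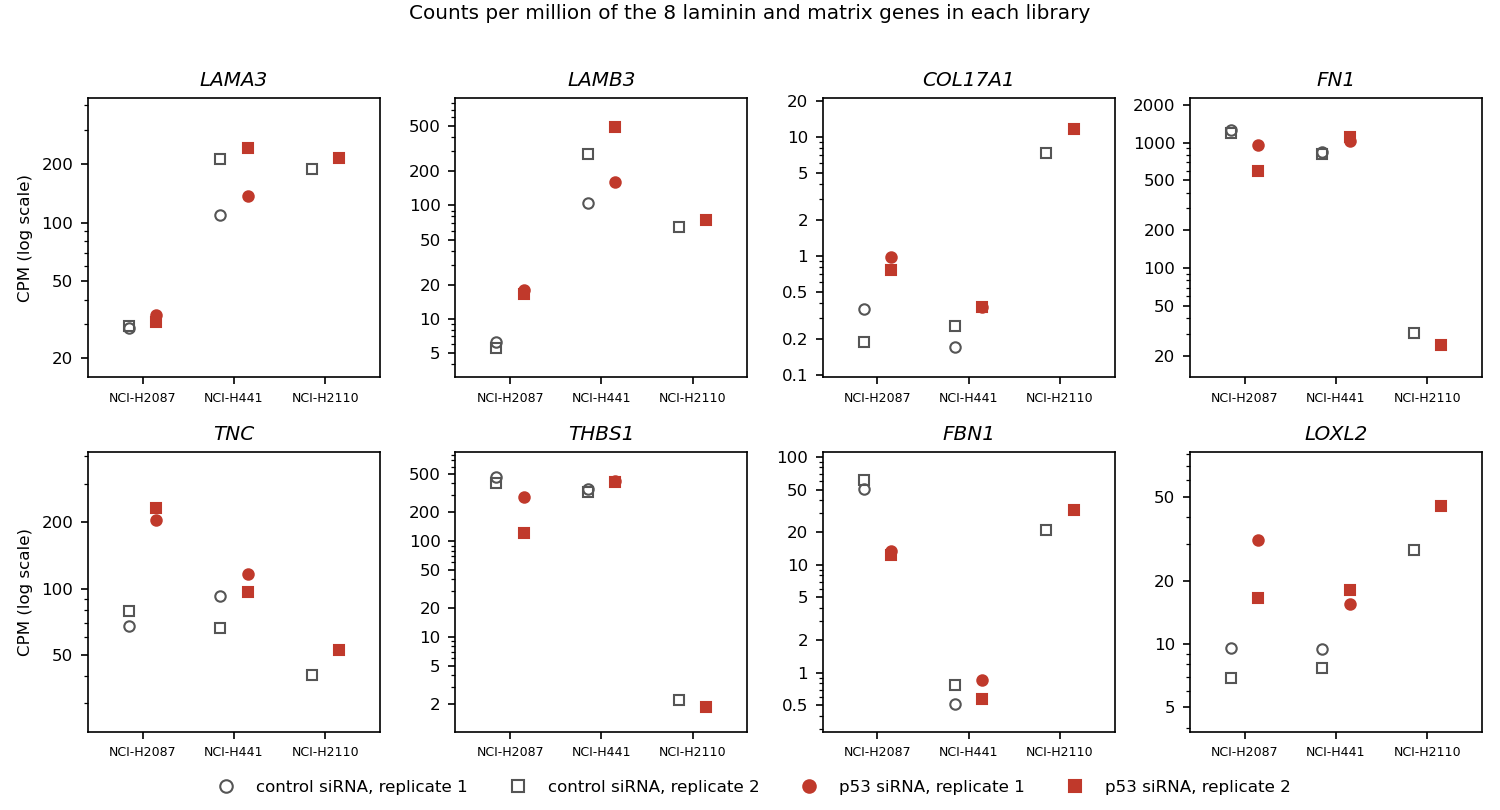
CPM (log scale, a separate range in each panel) of the 8 genes in each of the 10 libraries, by cell line, with open grey symbols for control siRNA, filled red symbols for p53 siRNA, circles for replicate 1 and squares for replicate 2. FN1 and THBS1 are lowest in NCI-H2110, and FBN1 is lowest in NCI-H441. In NCI-H2087 the p53 siRNA libraries do not overlap the controls for any of the 8 genes, and the arms are closest for LAMA3.

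Between the control libraries of the 2 replicated lines, 3 of the 8 genes were called, against 42.1% of all genes tested. LAMB3 was lower in NCI-H2087 than in NCI-H441, at 6.24 and 5.47 CPM against 106 and 282 CPM (log2 difference −5.06 ± 0.61, adjusted p = 0.000158). LAMA3 was lower in NCI-H2087 too, at 28.8 and 29.3 against 109 and 212 CPM (−2.47 ± 0.34, adjusted p = 0.000354). These are 2 of 8 genes lower, where 20.1% of all genes were. FBN1 went the other way, with 972 and 1628 counts in NCI-H2087 and 12 and 21 counts in NCI-H441 (6.41 ± 0.30, adjusted p = 8.59e-07). That is 1 of 8 higher in NCI-H2087, where 22.0% of all genes were. FN1 (0.56 ± 0.21 log2, adjusted p = 0.0534), THBS1 (0.37 ± 0.31), COL17A1 (0.28 ± 0.55), LOXL2 (−0.06 ± 0.31) and TNC (−0.12 ± 0.20) were not called by edgeR, and DESeq2 called FN1 too (adjusted p = 0.027).

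With p53 siRNA in NCI-H2087, TNC and LOXL2 rose and FBN1 fell, while the 2 laminin chains, COL17A1, FN1 and THBS1 did not pass the test. The 3 called of 8 stand beside 8.68% of all genes called; 2 of 8 rose beside 4.98% of all genes, and 1 of 8 fell beside 3.69%. The median log2 change was 0.84 over the 8 genes and −0.03 over all genes tested. Scaling by library totals alone moved these medians to 0.67 and −0.21, and the share of higher genes among all those called from 57.4% to 33.2%. Because same-numbered libraries of a line deviated together, the comparison was also fitted with the replicate number as a block. In that fit 7 of the 8 genes were called, beside 25.4% of all genes (12.8% higher and 12.6% lower). It leaves only 2 residual degrees of freedom, against 4 without the block.

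The change in NCI-H2087 was estimated separately for LAMB3 and LAMA3. LAMB3, the beta chain, was at 6.24 and 5.47 CPM in the controls and at 17.8 and 16.7 CPM after p53 siRNA. The arms did not overlap. The change of 1.56 ± 0.55 log2 missed the threshold without the block (adjusted p = 0.113) and passed it with the block (1.56 ± 0.16, adjusted p = 5.86e-06). Both fits use a spread for each gene that is shared by all lines. LAMB3 in replicate 2 was at 0.88 (control) and 0.93 (p53 siRNA) times replicate 1 in NCI-H2087, and at 2.66 and 3.07 times in NCI-H441. LAMA3, the alpha chain, was at 28.8 and 29.3 CPM against 33.3 and 31.0 CPM. Its arms lay close together, with a change of 0.15 ± 0.32 log2 (adjusted p = 0.835, and 0.487 with the block). The ratio of LAMB3 to LAMA3 per exon length was 0.678 and 0.584 in the controls and 1.67 and 1.68 after p53 siRNA. Per length of the longest transcript it was 0.536 and 0.462 against 1.32 and 1.33. LAMA3 has 15 annotated transcripts and LAMB3 has 5, and the lengths of shorter ones were not used. Whether this ratio lies above 1 may therefore depend on the transcript expressed, which was not determined. COL17A1, the transmembrane collagen of the hemidesmosome, had only 7 and 5 counts in the controls and 23 and 18 after p53 siRNA. Its change of 1.69 ± 0.46 log2 missed the threshold narrowly without the block (adjusted p = 0.0513) and passed with it (adjusted p = 0.0144).

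**Figure D2:**
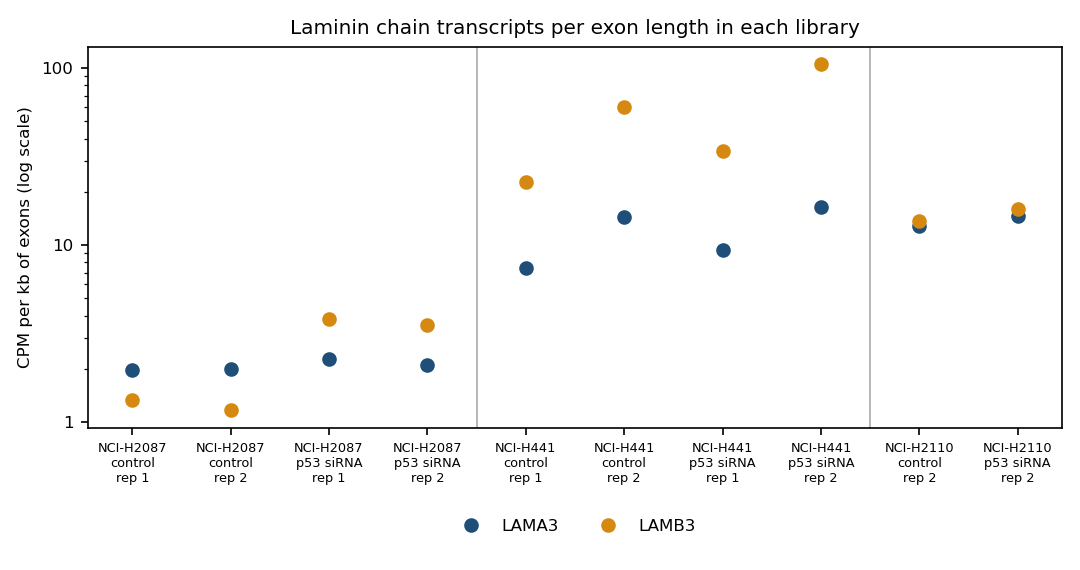
CPM per kilobase of exons (log scale) of LAMA3 and LAMB3 in each library, ordered by line, arm and replicate, with grey lines between the lines. LAMB3 is below LAMA3 in the NCI-H2087 controls (ratios 0.678 and 0.584) and above it in the other libraries, by 1.08 to 6.37 times. Per length of the longest transcript LAMB3 is below LAMA3 in both NCI-H2110 libraries (0.852 and 0.869). Lengths of shorter transcripts were not used.

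Of the adhesive glycoproteins TNC rose in NCI-H2087, while FN1 and THBS1 had negative estimates. TNC was at 67.4 and 78.8 CPM in the controls and at 206 and 231 CPM after p53 siRNA. The arms were well apart, and TNC rose by 1.58 ± 0.20 log2 (adjusted p = 0.00255), a call that held without any 1 of the 4 libraries (adjusted p at most 0.0372). FN1 was at 1258 and 1190 CPM against 959 and 598 CPM. Both treated libraries were below both controls, with a change of −0.65 ± 0.21 log2 (adjusted p = 0.0854, and 0.00334 with the block). THBS1 was at 469 and 400 CPM against 288 and 123 CPM, a change of −1.08 ± 0.32 log2 (adjusted p = 0.0636, and 0.000253 with the block). For both genes p53 siRNA replicate 2 was the lower library, and without p53 siRNA replicate 1 both were called (adjusted p = 0.0132 for FN1 and 0.00254 for THBS1, changes of −1.03 and −1.82 log2). The treated arm of that fit is 1 library, assumed to vary like the other groups. Without p53 siRNA replicate 2 neither was called (−0.35 and −0.59 log2, adjusted p = 0.28 and 0.12).

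The microfibril gene FBN1 and the crosslinking gene LOXL2 moved in opposite directions in NCI-H2087. FBN1 was at 50.1 and 61.4 CPM in the controls and at 13.6 and 12.3 CPM after p53 siRNA. It fell by 2.10 ± 0.23 log2 (adjusted p = 0.00141), and the call held without any 1 of the 4 libraries (adjusted p at most 0.0271). LOXL2 was at 9.54 and 6.90 CPM against 31.1 and 16.6 CPM. Both treated libraries were above both controls, the treated ones far apart, and LOXL2 rose by 1.54 ± 0.31 log2 (adjusted p = 0.0162). That call was lost without control replicate 1 (adjusted p = 0.066), control replicate 2 (0.159) or p53 siRNA replicate 1 (0.0609). Of the cell type markers in the same line, summed lung epithelial markers were at 4180 to 4490 CPM in the controls and 9390 to 9450 CPM after p53 siRNA. Most of that sum was the keratin gene KRT18, at 3077 to 3348 and 7238 to 7325 CPM, while markers of lung lineage were lower after p53 siRNA. NKX2-1, a transcription factor of lung epithelium, was at 321 to 338 and 180 to 245 CPM, the surfactant gene SFTPB at 15.1 to 27.8 and 0.803 to 1.79 CPM, and NAPSA at 32.8 to 33.7 and 15.5 to 20.9 CPM. Summed basal and squamous markers were at 56.1 to 66.3 and 26.9 to 37.2 CPM, and their defining gene KRT5 had 0 counts in all 4 libraries. SOX2 was at 42.9 to 47.3 and 8.49 to 17.9 CPM, and TP63 at 7.22 to 13.3 and 1.69 to 2.09 CPM. The basal keratin gene KRT15 went the other way, at 5.05 to 5.16 CPM in the controls and 16.0 to 16.4 CPM after p53 siRNA. Summed immune and endothelial markers were at 114 to 135 and 257 to 364 CPM, nearly all of it the lysosomal gene CD68, at 113 to 134 and 257 to 363 CPM. The endothelial gene CDH5 was lower after p53 siRNA, with 13 and 36 counts against 6 and 9, and the pan-leukocyte gene PTPRC had 1 count in each control and 0 in each treated library. The part of these shifts in the results above was not tested.

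**Figure D3:**
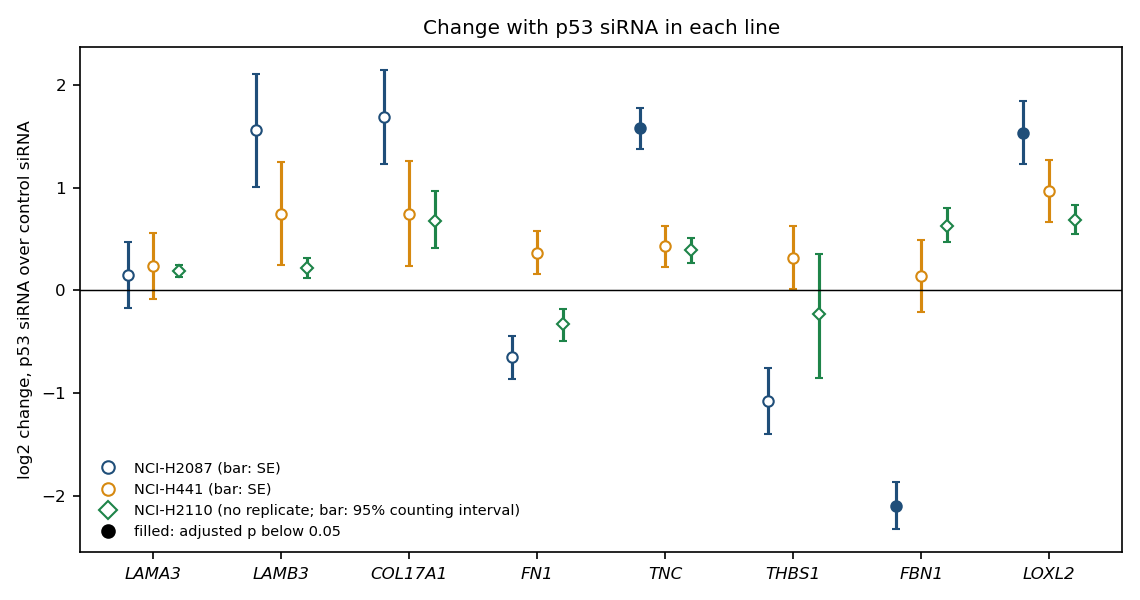
Log2 change with p53 siRNA over control siRNA for the 8 genes in each line; circles show edgeR estimates with SE bars for NCI-H2087 and NCI-H441, diamonds show NCI-H2110 with 95% counting intervals, and filled symbols mark adjusted p below 0.05. The filled symbols are TNC, FBN1 and LOXL2 in NCI-H2087, at 1.58, −2.10 and 1.54.

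In NCI-H441 none of the 8 genes passed the edgeR test, where 0.00556% of all genes did. DESeq2 and limma-voom called 0 as well, and 1 gene, LOXL2, had an unadjusted p below 0.05 (0.00993). The estimated change was above 0 for 8 of 8 genes, with a median of 0.40 log2 against 0.01 for all genes. It was also above 0 for 73 of 95 other genes of the matrix and its receptors. With 1 library left out, the estimates reached −0.22 for LAMA3, −0.28 for LAMB3 and −0.19 for FBN1. LOXL2 was at 9.44 and 7.69 CPM in the controls and at 15.6 and 18.1 CPM after p53 siRNA. The arms did not overlap, with a change of 0.97 ± 0.30 log2 (adjusted p = 0.933, and 0.0356 with the block). LAMB3 was at 106 and 282 CPM against 160 and 493 CPM, a change of 0.75 ± 0.50 log2 (adjusted p = 0.933, and 0.0327 with the block). Replicate 2 was above replicate 1 by 2.66 times in the control arm and 3.07 times in the treated arm, so the arms overlapped while both same-numbered pairs were higher with p53 siRNA. With the block 2 of 8 genes were called, both higher, beside 0.417% of all genes called and 0.273% higher.

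LAMA3 also had a gap between replicates in NCI-H441. It was at 109 and 212 CPM in the controls and at 138 and 242 CPM after p53 siRNA (0.24 ± 0.32 log2, adjusted p = 0.963). Replicate 2 was higher than replicate 1 by 1.95 times in the control arm and 1.76 times in the treated arm. The ratio of LAMB3 to LAMA3 per exon length was 3.05 and 4.16 in the controls and 3.65 and 6.37 after p53 siRNA. For FN1 and THBS1 the same ratio of replicates was 0.93 to 1.08. FN1 was at 847 and 808 CPM against 1031 and 1110 CPM (0.37 ± 0.21 log2, adjusted p = 0.933), and THBS1 at 349 and 324 against 427 and 415 CPM (0.32 ± 0.31, adjusted p = 0.938). TNC was at 92.3 and 66.3 CPM against 116 and 96.9 CPM (0.43 ± 0.20, adjusted p = 0.933). FBN1 had 12 and 21 counts against 21 and 14, and COL17A1 had 4 and 7 counts against 9 and 9, and a change was not detectable at this depth.

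**Figure D4:**
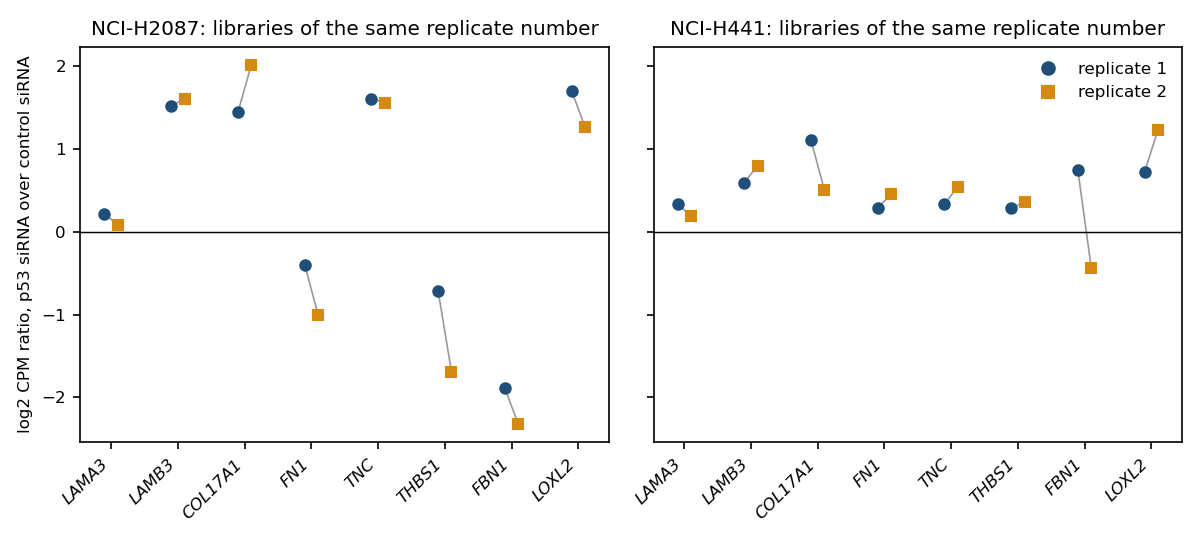
Log2 ratio of CPM, p53 siRNA over control siRNA, within libraries of the same replicate number, for replicate 1 (circles) and replicate 2 (squares) in NCI-H2087 and NCI-H441. In NCI-H441 the LAMB3 ratios are 1.51 and 1.74 on the linear scale, and in NCI-H2087 they are 2.86 and 3.05; THBS1 in NCI-H2087 has the ratios 0.61 and 0.31.

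The difference between the 2 lines in their change with p53 siRNA was called for 0 of the 8 genes, where 0.412% of all genes were called. DESeq2 called 4 of the 8, where it called 459 of all 17978 genes tested. With limma-voom 0 of the 8 were called, where 31 of all genes were. In edgeR 4 of the 8 genes had an unadjusted p below 0.05, with no share of all genes set beside them. These were FBN1 (NCI-H2087 minus NCI-H441, −2.24 ± 0.42 log2, adjusted p = 0.0623), TNC (1.15 ± 0.28, adjusted p = 0.128), FN1 (−1.02 ± 0.30, adjusted p = 0.192) and THBS1 (−1.40 ± 0.44, adjusted p = 0.226). With the block the difference was called for 5 of 8, beside 8.92% of all genes, namely FBN1 (adjusted p = 0.00476), TNC (0.00184), FN1 (0.0058), THBS1 (0.00218) and LAMB3 (0.86 ± 0.20, adjusted p = 0.0171). LOXL2 (0.57 ± 0.43, adjusted p = 0.62), COL17A1 (0.95 ± 0.71, adjusted p = 0.616) and LAMA3 (−0.10 ± 0.45, adjusted p = 0.989) were not called in either fit.

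NCI-H2110 has no replicate, so its values carry no test, and the intervals cover counting error only. None of the 8 genes differed 2-fold or more between its libraries, where 1.49% of the 12385 genes with enough counts did. LOXL2 was at 28.1 CPM in the control and 45.3 CPM with p53 siRNA (log2 ratio 0.69, 95% interval 0.55 to 0.83). COL17A1, which was higher in this line than in the others, had 185 and 271 counts (0.68, 0.41 to 0.97). FBN1 was at 20.9 and 32.3 CPM (0.63, 0.47 to 0.80), opposite in sign to its fall in NCI-H2087. TNC (0.39), LAMB3 (0.22) and LAMA3 (0.19) had small positive ratios, and FN1, at 30.6 and 24.3 CPM, a negative one (−0.33, −0.49 to −0.18). THBS1 had 56 and 43 counts (−0.23, −0.85 to 0.36), a difference not detectable at this depth.

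Over the 3 lines in an additive fit, LOXL2 rose by 1.14 ± 0.21 log2 (adjusted p = 0.0419), and each of its 5 p53 siRNA libraries was above every control library of its line. It was the 1 gene of 8 called, beside 0.395% of all genes called and 0.339% higher. The call was lost in 9 of the 10 fits that left out 1 library (adjusted p up to 0.192) and without NCI-H2110 (0.0572). TNC (0.88 ± 0.21, adjusted p = 0.0996), COL17A1 (1.06 ± 0.30, adjusted p = 0.144), LAMB3 (0.94 ± 0.33, adjusted p = 0.237) and FBN1 (−0.89 ± 0.42, adjusted p = 0.364) did not pass. LAMA3 (0.19 ± 0.19), FN1 (−0.18 ± 0.19) and THBS1 (−0.36 ± 0.27) were nearer to 0.

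Other genes of the matrix and its receptors were followed in 8 lists of 111 genes, of which 95 were tested. These lists too were chosen with earlier results of these data known. In NCI-H2087 10 of the 95 rose, beside 4.98% of all genes, 2 fell, beside 3.69%, and 83 were not called. With the block 17 were higher and 11 lower, beside 12.8% and 12.6% of all genes. Of 10 hemidesmosome and laminin receptor genes 4 rose and 0 fell, with a median of 0.35 log2 against −0.03 for all genes, and with the block 4 were called higher and 1 lower. ITGB4 and ITGA6 encode the integrin that binds the laminin described here. ITGB4 rose from 23.8 ± 0.81 to 46.6 ± 3.08 CPM (0.97 ± 0.16, adjusted p = 0.00823) and ITGA6 from 28.3 ± 3.39 to 62.4 ± 19.2 CPM (1.14 ± 0.24). ITGA3, the alpha subunit of another laminin receptor, rose by 1.00 ± 0.21 and PLEC, which encodes plectin, by 0.88 ± 0.16 log2. Of 21 other laminin and basement membrane genes 1 rose, LAMB1, a beta chain of other laminins, from 216 ± 36.4 to 527 ± 172 CPM (1.29 ± 0.28), and 0 fell, with a median of −0.24. With the block 2 of the 21 were called higher and 3 lower.

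Among the 12 tested crosslinking and collagen processing genes 2 rose and 0 fell, and with the block 3 were called higher and 2 lower. TGM2, a transglutaminase, rose by 1.88 ± 0.32 log2 and LOXL1, a relative of LOXL2 that acts on elastin, by 1.76 ± 0.26 (adjusted p = 0.00826 and 0.00428). Of 9 TGF-beta ligands and receptors TGFBR1 (1.29 ± 0.26) and TGFB1 (0.92 ± 0.24) rose and TGFB2 (−1.08 ± 0.21) fell, and with the block 3 were higher and 1 lower. Of 11 receptors for fibronectin, tenascin and thrombospondin 1 rose, ITGB6 (1.11 ± 0.27), the beta subunit of an integrin that binds fibronectin and latent TGF-beta, and with the block 2 were higher and 1 lower. Of 12 microfibril and elastic fibre genes 1 fell, EFEMP1, a fibulin (−1.14 ± 0.22), from 817 ± 152 to 372 ± 115 CPM. With the block 1 of the 12 was higher and 1 lower. No matricellular gene of 10 and no fibrillar or other collagen of 10 passed the edgeR test, and each list had 2 genes with an unadjusted p below 0.05; limma-voom called 1 and 0 of them and DESeq2 0 and 0. With the block 2 of the 10 matricellular genes were called, 1 higher and 1 lower, and likewise 2 of the 10 collagens, 1 higher and 1 lower. Leaving out 1 of the 4 libraries ended each of these 12 calls at least once. ITGA3, ITGA6, ITGB6, LAMB1, TGFBR1, TGFB1 and TGFB2 were called in only 1 of those 4 fits.

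**Figure D5:**
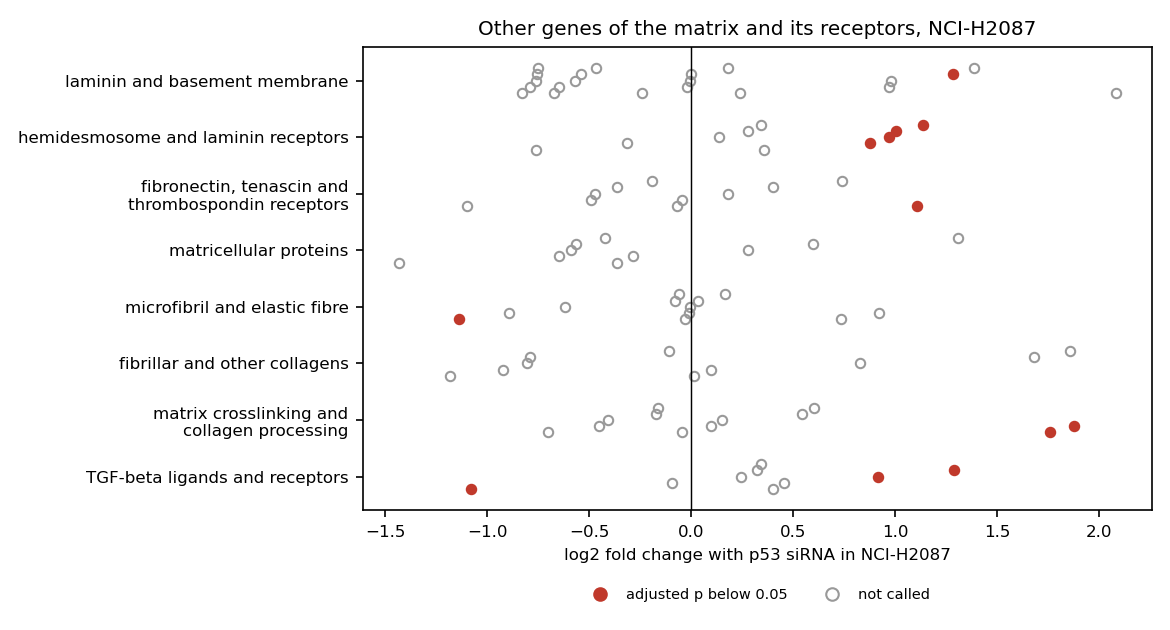
Log2 fold change with p53 siRNA in NCI-H2087 for 95 other genes of the matrix and its receptors, 1 point per gene in 8 lists, with filled red points for adjusted p below 0.05; vertical offsets within a list only separate points. Of the 12 filled points 10 are above 0, and 4 of them are hemidesmosome and laminin receptor genes between 0.88 and 1.14.

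In NCI-H441 0 of the 95 list genes were called by edgeR, DESeq2 or limma-voom, or with the block, and 7 had an unadjusted p below 0.05. The difference between the lines was called for 0 of 95, where 0.412% of all genes were called, with 21 at an unadjusted p below 0.05. DESeq2 called 4, where it called 459 of all 17978 genes tested, and limma-voom called 0. The block fit called 14, beside 8.92% of all genes. In NCI-H441 ITGB4 was at 82.7 and 76.0 CPM in the controls and 106 and 124 CPM in the treated libraries. The NCI-H2110 libraries had 36.0 and 55.6 CPM. Over the 3 lines ITGB4 was the 1 list gene called (0.73 ± 0.12, adjusted p = 0.0258), beside 0.395% of all genes. That call was lost in 7 of the 10 fits that left out 1 library (adjusted p up to 0.182). Between the control libraries 60 of the 95 were called, beside 42.1% of all genes, with 40 higher in NCI-H2087 and 20 lower, beside 22.0% and 20.1%. LAMB1 was at 190 and 242 CPM in NCI-H2087 against 1.25 and 1.44 CPM in NCI-H441 (7.32 ± 0.38), and LOX, a collagen and elastin crosslinking enzyme, at 241 and 228 against 2.75 and 2.14 CPM (6.58 ± 0.26). COL6A1, a collagen VI chain, was at 1.29 and 1.51 against 31.2 and 43.2 CPM (−4.72 ± 0.48), and ITGB4 was also lower in NCI-H2087 (−1.74 ± 0.17).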

How the data were processed

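RNA sequencing counts from 10 libraries were analysed. The deposited table holds whole-number counts per Ensembl gene, not normalized by the authors; the submitters' processing notes name Bowtie2, RSEM 1.2.12 and hg19, without roles, so rounded RSEM estimates cannot be told apart from read counts. Genes were kept by filterByExpr (17978 genes, 99.96% of counts), scaled by TMM and tested in R 4.3.3 with edgeR 4.0.16 (glmQLFit and glmQLFTest, two-sided), Benjamini-Hochberg adjusted over all genes tested, with calls at adjusted p below 0.05. The model had a mean for each line and siRNA over all 10 libraries, leaving 4 residual degrees of freedom, or line plus siRNA for the common change, leaving 6. DESeq2 1.42.0 and limma-voom (limma 3.58.1) were alternatives. The code was tested on simulated data. CPM use TMM library sizes, and exon lengths are unions of GENCODE 29 exons. NCI-H2110 was compared as log2 ratios (prior count 2) for genes that reached 50 counts in 1 of its libraries.

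The pairing comes from replicate numbers in the labels. Replicate 1 minus replicate 2 correlated between the control and treated arms over 9332 genes (r = 0.534 in NCI-H2087 and 0.595 in NCI-H441), so the numbers were also fitted as a replicate block. With the block 2 residual degrees of freedom are left, or 4 in the fit of the common change. Chi-square per gene between replicates was 18.5 to 54, so none were copies.

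Named were all 8 genes and, per list and contrast, up to 4 called genes of largest change with mean CPM of at least 1; of the genes called between control libraries, LAMB1, LOX, COL6A1 and ITGB4 were picked from these after their values were seen. Of the naming rule, 2 further genes are not reported here, and list counts leave out 1 of them. Like-pattern genes were the 2 of highest Pearson correlation. Members and lists were chosen with earlier results of these data known.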

Additional observations from a re-analysis of the deposited data

How the results depend on the processing

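The number of the 8 genes called in NCI-H2087, 3, became 5 with library totals alone, 7 without a filter on low counts, 5 with DESeq2 and 7 with the replicate block, and ran from 2 to 4 when 1 library was left out. In NCI-H441 0 became 2 with the block and stayed 0 in the other settings run. For the difference between the lines 0 became 1 with totals alone, 4 without a filter, 4 with DESeq2 and 5 with the block, and 0 to 2 with 1 library left out. For the common change 1 became 5 without a filter, 2 with DESeq2 and 0 without NCI-H2110, and 0 to 1 with 1 library left out. Between control libraries the count of 3 became 4 with DESeq2, which added FN1, and held with 1 library left out, and no block fit was made for that contrast. Over all settings run for that contrast, a gene not called became called 5 times, counting FN1 with DESeq2. FN1 per exon length moved from 47.7 to 90.1 CPM per kb over the 5 control libraries with the longest transcript in place of all exons, LAMA3 by 1.38 times, LOXL2 by 1.61 times and the other genes by 1.09 to 1.37 times in every library. Apart from FN1 these shifts were below the SD over the 5 controls, which spans 3 lines. They were larger than the SD within the NCI-H2087 controls for LAMA3, FN1, TNC, THBS1, FBN1 and LOXL2, and not for LAMB3 and COL17A1. LAMB3 over LAMA3 then turned in NCI-H2110, from 1.08 and 1.1 to 0.852 and 0.869. Changes of sign, all in values not called, were LAMA3 in NCI-H2087 with totals alone (−0.03) and, with 1 library left out, LAMA3 (−0.22 to 0.81), LAMB3 (−0.28 to 1.63), and FBN1 (−0.19 to 0.48) in NCI-H441, LAMA3 (−0.66 to 0.37) and LAMB3 (−0.06 to 1.84) for the difference, and COL17A1 (−0.21 to 0.71), LOXL2 (−0.32 to 0.15) and TNC (−0.31 to 0.12) between control libraries. Over all genes the 1560 calls of NCI-H2087 became 2700 without a filter and 4571 with the block, and 177 to 1103 with 1 library left out; the 1 of NCI-H441 became 69 without a filter, 75 with the block, 25 with DESeq2, 0 from that line alone and 0 to 2 with 1 library left out. The 74 of the difference became 810 without a filter, 459 with DESeq2, 31 with limma-voom, 1604 with the block and 0 to 92 with 1 library left out, and the 71 of the common change became 1123 without a filter, 609 with DESeq2 and 2 to 117 with 1 library left out. The 7568 between control libraries became 4713 to 5366 with 1 library left out. Calls over all genes in NCI-H2087 also moved to 1923 with library totals alone and 2133 with DESeq2. Those of the difference moved to 86 with totals alone, and those of the common change to 61 without NCI-H2110. The causes were not tested. With n = 2 libraries per arm, and 4 to 23 counts of COL17A1 in the replicated lines, small changes were not detectable.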

Other observations

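The genes whose log2 CPM followed the 8 genes most closely over the 10 libraries were searched among 11109 genes. The libraries share lines, and spread between lines sets most of these correlations, so they are descriptions with no test. FN1 and THBS1 were each other's nearest gene (Pearson r = 0.997), followed by TSC22D2 for FN1 and BMP4 for THBS1 (r = 0.995 each). LAMA3 was nearest to PMEPA1 (0.990) and FOXJ2 (0.988), LAMB3 to SERINC2 (0.984) and ICOSLG (0.983), and COL17A1 to RGS2 and ANKRD28 (0.988 each). FBN1 was nearest to FOXN3 (0.989) and RAD17 (0.987), LOXL2 to TNS4 (0.967) and TBP (0.949), and TNC to CEP250 (0.954) and MIR4435-2HG (0.946).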
